A study of Homo sapiens with 20 samples.

Results

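The clustered histone genes of HepaRG cells were examined on 20 one-color arrays. All probes whose accession maps to a clustered core or H1 histone gene (current symbols beginning with H2AC, H2BC, H3C or H4C, symbols H1-1 to H1-6, or older symbols beginning with HIST1, HIST2, HIST3 or HIST4) were taken, which gave 77 of the 42405 probes on the array, for 66 of 19062 named genes. Of these genes, 54 lie on chromosome 6, 11 on chromosome 1 and 1 on chromosome 12. HepaRG is a human hepatoma line whose proliferating progenitors stop dividing at confluence and differentiate into hepatocyte-like and biliary-like cells, so each array averages over a mixed culture of 1 line. Cells were collected at day 4 of culture (D4), at day 15 (D15), at day 30 after medium without dimethyl sulfoxide (D30 − DMSO), at day 30 after 2% DMSO from day 15 (D30 + DMSO), and at day 34, when DMSO-treated cells had spent 4 days without it (D34 ± DMSO), with 4 biological replicates each. All 5 conditions shared the same insulin- and hydrocortisone-containing medium, and no sample analysed here was kept to day 34 without DMSO or with it throughout.

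Core histones H2A, H2B, H3 and H4 form the octamer around which nuclear DNA is wound, and H1 binds the linker DNA between nucleosomes. Most genes of these clusters are replication-dependent: they are transcribed when DNA is copied, and their mRNAs end in a stem-loop in place of a poly(A) tail. Some are also transcribed outside S phase or give polyadenylated mRNAs, and replacement variants such as H3.3 and H2A.Z are made from genes elsewhere throughout the cell cycle. The labeling kit starts from the poly(A) tail, as such kits do, so the signal can under-represent stem-loop mRNAs. Which forms were labeled was not tested.

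Promoters of clustered histone genes carry short elements in common, and those of 6 genes that the results below turn on are shown as the 250 bases before the start site, 5′ to 3′ on the gene's strand (RefSeq, GRCh38.p14). Capitals mark matches, on either strand, to the CCAAT box (CCAAT), the TATA box (TATAAA), the octamer bound by OCT1 (ATTTGCAT) and an E2F-type site (TTTCGCGC). H3C15 (histone H3, chr1:149852358-149852607 on the plus strand), H1-5 (linker histone, chr6:27867589-27867838 on the minus strand) and H2AC13 (histone H2A, chr6:27807923-27808172 on the plus strand) fell most from D4 to D15. H2AC19 (histone H2A, chr1:149850811-149851060 on the plus strand) was higher at D15, H4C12 (histone H4, chr6:27831561-27831810 on the minus strand) was higher with DMSO, and H2BC21 (histone H2B, chr1:149886683-149886932 on the minus strand) had probes with fitted values of opposite sign.
H3C15: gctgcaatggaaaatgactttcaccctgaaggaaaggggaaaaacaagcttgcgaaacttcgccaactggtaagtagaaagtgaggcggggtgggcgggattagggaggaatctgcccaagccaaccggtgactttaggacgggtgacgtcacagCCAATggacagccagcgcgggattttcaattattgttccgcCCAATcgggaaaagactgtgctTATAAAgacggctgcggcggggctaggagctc
H1-5: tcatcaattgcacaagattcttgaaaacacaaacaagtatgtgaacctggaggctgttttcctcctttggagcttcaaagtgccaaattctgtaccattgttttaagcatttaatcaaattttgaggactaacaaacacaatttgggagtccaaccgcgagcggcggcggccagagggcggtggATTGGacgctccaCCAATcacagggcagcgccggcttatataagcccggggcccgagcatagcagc
H2AC13: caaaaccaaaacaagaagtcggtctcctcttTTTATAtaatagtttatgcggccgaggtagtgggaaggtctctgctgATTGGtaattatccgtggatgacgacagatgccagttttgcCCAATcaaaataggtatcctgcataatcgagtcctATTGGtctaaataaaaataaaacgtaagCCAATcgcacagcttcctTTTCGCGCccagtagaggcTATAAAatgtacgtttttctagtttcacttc
H2AC19: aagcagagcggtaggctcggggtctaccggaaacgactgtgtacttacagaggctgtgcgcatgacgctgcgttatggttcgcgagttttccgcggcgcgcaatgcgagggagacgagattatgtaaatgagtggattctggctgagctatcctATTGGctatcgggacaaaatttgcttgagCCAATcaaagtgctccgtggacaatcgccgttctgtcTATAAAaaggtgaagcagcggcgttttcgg
H4C12: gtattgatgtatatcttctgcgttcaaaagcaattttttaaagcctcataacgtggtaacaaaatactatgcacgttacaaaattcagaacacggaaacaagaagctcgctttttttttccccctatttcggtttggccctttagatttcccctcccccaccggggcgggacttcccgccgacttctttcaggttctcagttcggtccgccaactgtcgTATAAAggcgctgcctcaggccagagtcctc
H2BC21: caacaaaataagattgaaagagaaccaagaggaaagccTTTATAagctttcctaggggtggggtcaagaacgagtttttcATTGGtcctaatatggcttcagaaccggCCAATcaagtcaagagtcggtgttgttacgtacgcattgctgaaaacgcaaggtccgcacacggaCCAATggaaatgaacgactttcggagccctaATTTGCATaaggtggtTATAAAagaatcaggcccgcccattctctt

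All of these windows but that of H4C12 hold CCAAT, that of H2BC21 holds the octamer, and that of H2AC13 the E2F-type site. A promoter was matched for 61 of the 66 genes. Among all 35116 promoters in the table, 11240 (32%) hold CCAAT, 3763 TATAAA, 573 (1.63%) the octamer and 154 (0.439%) the E2F-type site. Among the 61 histone promoters the counts were 52, 40, 25 and 10. A second E2F-type form, TTTGGCGC, was in 0 of the 61 and in 193 (0.55%) of all promoters. CCAAT was present in all 6 H1, 14 H2A, 18 H2B and 11 H3 promoters and in 3 of 12 H4 promoters. The octamer was present in 14 of 18 H2B and 10 of 14 H2A promoters, in 1 of 11 H3 promoters and in no H1 or H4 promoter. Promoters of neighbouring H2A and H2B genes that point away from each other share bases, so their windows are not independent. A match is a description of the letters and does not show that a factor binds there.

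The processed signal of each array was scaled to a common 75th percentile of 546 intensity units. A log2 value of 0 stands for that percentile, and a log2 difference of 1 for 2-fold. Probes were tested where 1 or more conditions had the probe well above background on each of its 4 arrays. This left 69 of the 77 histone probes (4 H1, 16 H2A, 20 H2B, 14 H3 and 15 H4, for 60 genes) among 26531 probes. The 8 probes left out belong to H1-1, H1-6, H2AC25, H2BC1, H4C7 and H4C16 and to second probes of H2BC18 and H4C1, and no condition mean of theirs was above 35.1 intensity units. Of the 69, 62 were well above background on all 20 arrays. The other 7, for H1-5, H2AC16, H2BC6, H2BC7, H2BC18 and both probes of H2BC21, were not on some array. Arrays of the second scan session all lie on slide 4 (each condition's replicate 4, and the third replicates of D15 and D30 + DMSO). The histone probes of 3 arrays stood apart from their replicates: the median H4 probe of D34 ± DMSO replicate 3 lay 1.08 above its D4 mean on the log2 scale, that of D4 replicate 4 lay at -0.64 and that of D30 + DMSO replicate 4 at -1.01. Near-identical histone genes can share a probe's target, and probe sequences were not used here, so each value is that of a probe and its assignment to 1 gene is uncertain.

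The 3 genes with the highest mean signal in each class were mostly not called, apart from those of H4. H1-2, a linker histone expressed also in resting cells, had 12776 ± 2158 intensity units at D4 (SD, n = 4 arrays), 15823 ± 1766 at D15 and 18675 ± 1400 at D30 + DMSO. H1-4 had 3360 ± 656, 2239 ± 333 and 2544 ± 325, and H1-3 had 754 ± 180, 630 ± 24.6 and 698 ± 15.7. None of these 3 H1 probes was called in any comparison. Among H2A, H2AC21 had 5750 ± 1151 at D4 and 6874 ± 444 at D15, and H2AC7 had 4376 ± 775 and 7142 ± 722, a log2 difference of 0.72 (SE 0.18, limma adjusted p = 0.00681) that was not called. Among H2B, H2BC12 had 6963 ± 1173 at D4 and 10672 ± 485 at D30 + DMSO, H2BC13 had 4232 ± 447 and 7289 ± 1067, and H2BC14 had 3131 ± 340 and 4856 ± 369. These H2B probes were not called in any comparison. Among H3, H3-4 (the testis histone H3t) had 38172 ± 7300 at D4 and 28822 ± 3061 at D15, H3C1 had 6232 ± 885 and 4779 ± 199, and H3C6 had 6180 ± 1196 and 3664 ± 286. No H3 probe among them was called, with log2 differences of -0.39, -0.37 and -0.74.

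**Figure D1:**
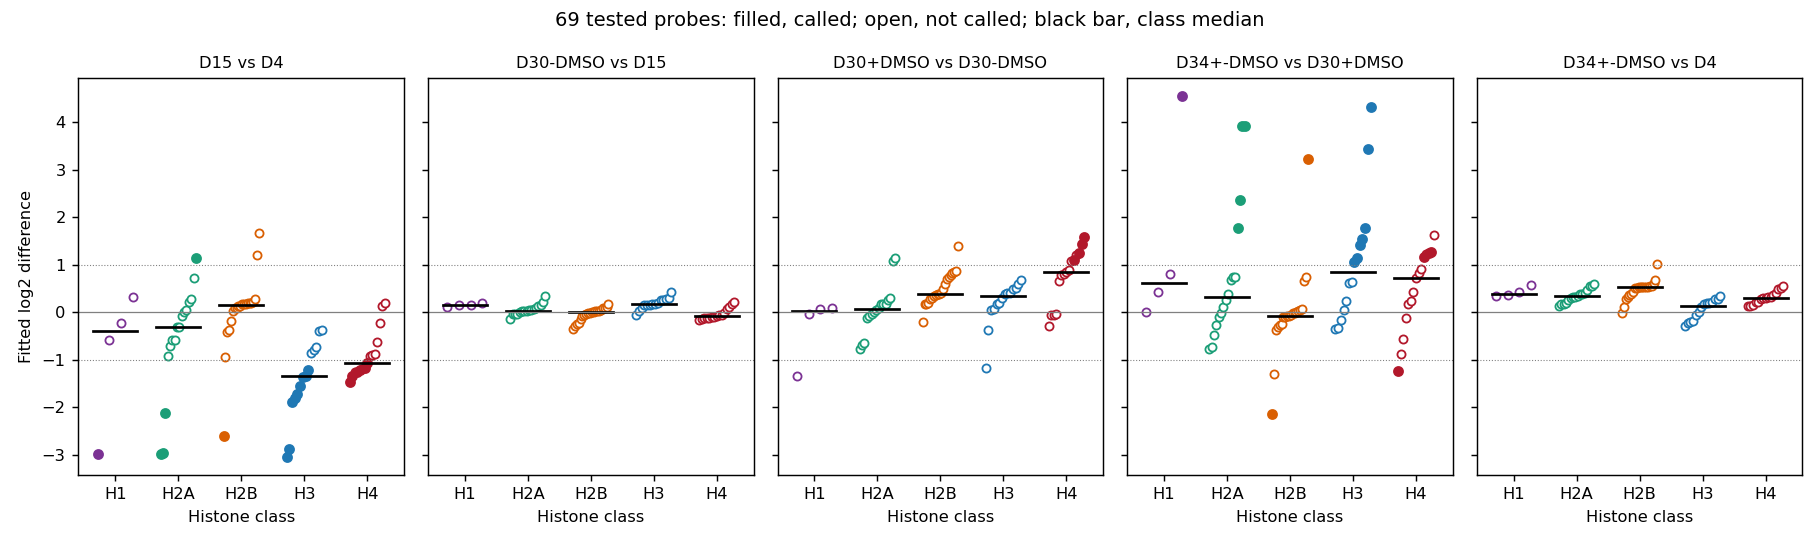
Fitted log2 difference (vertical axis) of each of the 69 tested probes by histone class (horizontal axis) in 5 comparisons, 1 per panel. Filled points were called, open points were not, black bars are class medians and dotted lines mark 2-fold. H3 and H4 probes lie mostly below 0 at D15 vs D4, with class medians of -1.35 and -1.07, while the H2B median was 0.16.

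The first comparison asks how histone mRNA levels differ between proliferating progenitors and confluent, committed cells. From D4 to D15, 20 of the 69 probes fell and 1 rose, against 3.69% of all probes tested called lower, 5.59% called higher and 9.27% called in all (limma adjusted p below 0.005, with a difference over 2-fold). The median difference over the 69 probes was -0.58 on the log2 scale, against 0.03 over all probes tested. The falls were spread unevenly over the classes: 9 of 14 H3 probes, 6 of 15 H4, 3 of 16 H2A, 1 of 4 H1 and 1 of 20 H2B. The H2B probe, that of H2BC7, was tested only through D4 and D34 ± DMSO, where it was high. All 14 H3 probes had a fitted value below 0, whereas 15 of 20 H2B probes had one above 0. Arrays of the conditions did not overlap for 32 probes lower and 3 higher at D15, where 11.5% and 12.6% of all probes did so. On the adjusted p alone, 22 probes were lower and 1 higher, against 5.91% and 7.6%. Differences between classes were not tested.

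H3C15, which encodes a replication-dependent H3, had 4074, 3468, 5764 and 1570 intensity units on the 4 arrays of D4 and 311, 474, 578 and 329 on those of D15. At D30 − DMSO it had 387, 510, 550 and 394, at D30 + DMSO 190, 238, 308 and 121, and at D34 ± DMSO 3257, 4547, 8749 and 2115. Every array of D4 and of D34 ± DMSO lay above every array of the other conditions. From D4 to D15 it fell by 3.04 on the log2 scale (SE 0.41, 8.22-fold, adjusted p = 1.79e-05).

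H1-5, a replication-dependent linker histone, had 541, 388, 530 and 284 at D4 and 40.0, 55.8, 49.9 and 72.7 at D15. It had 60.3, 87.1, 59.9 and 38.8 at D30 − DMSO, 23.0, 30.3, 30.3 and 14.2 at D30 + DMSO (3 of 4 arrays well above background), and 437, 646, 1289 and 244 at D34 ± DMSO. The levels at D4 and D34 ± DMSO overlapped, and both lay above all others. From D4 to D15 it fell by 2.98 (SE 0.40, 7.9-fold, adjusted p = 1.57e-05), while the other 3 tested H1 probes were not called.

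H2AC13, a replication-dependent H2A, had 558, 455, 601 and 454 at D4 and 40.8, 75.7, 65.1 and 91.5 at D15. It had 50.5, 88.7, 64.8 and 97.1 at D30 − DMSO, 37.4, 52.4, 55.7 and 44.2 at D30 + DMSO, and 494, 749, 1352 and 507 at D34 ± DMSO. The lowest array of D4 was well above the highest of D15. It fell by 2.97 (SE 0.30, 7.84-fold, adjusted p = 5.51e-07).

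H2AC19, another H2A gene, was the 1 probe that rose. It had 565, 792, 835 and 554 at D4 and 1364, 1543, 1640 and 1415 at D15. It stayed between 1231 and 1686 on the arrays of both D30 conditions, and had 1273, 899, 1321 and 707 at D34 ± DMSO. The arrays of D4 and D15 did not overlap, and the difference was 1.14 (SE 0.19, 2.2-fold, adjusted p = 0.000178). In the RefSeq order of genes H2AC19 is the neighbour of H3C15, which fell.

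The H4 probe with the highest signal, H4C3, had 84371, 89318, 90484 and 52458 at D4 and 35870, 39931, 38465 and 33384 at D15. It fell by 1.07 (SE 0.23, adjusted p = 0.00178), and the D4 array that lay lowest was replicate 4. H4C13 fell by 1.17 (SE 0.22, adjusted p = 0.000597) and H4C2 by 1.22 (SE 0.30, adjusted p = 0.00495).

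The count of 21 called probes lay between 16 and 26 when each array of D4 or D15 was left out, and was 6 with the methods' t-test. Within slides, the median of the 69 probes was -0.68 on slide 2, -0.81 on slide 3 and -0.11 on slide 4, whose D4 array is replicate 4. H3C15, H1-5 and H2AC13 were lower at D15 within each of these slides, by at least 1.85, 2.24 and 2.56 on the log2 scale.

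**Figure D2:**
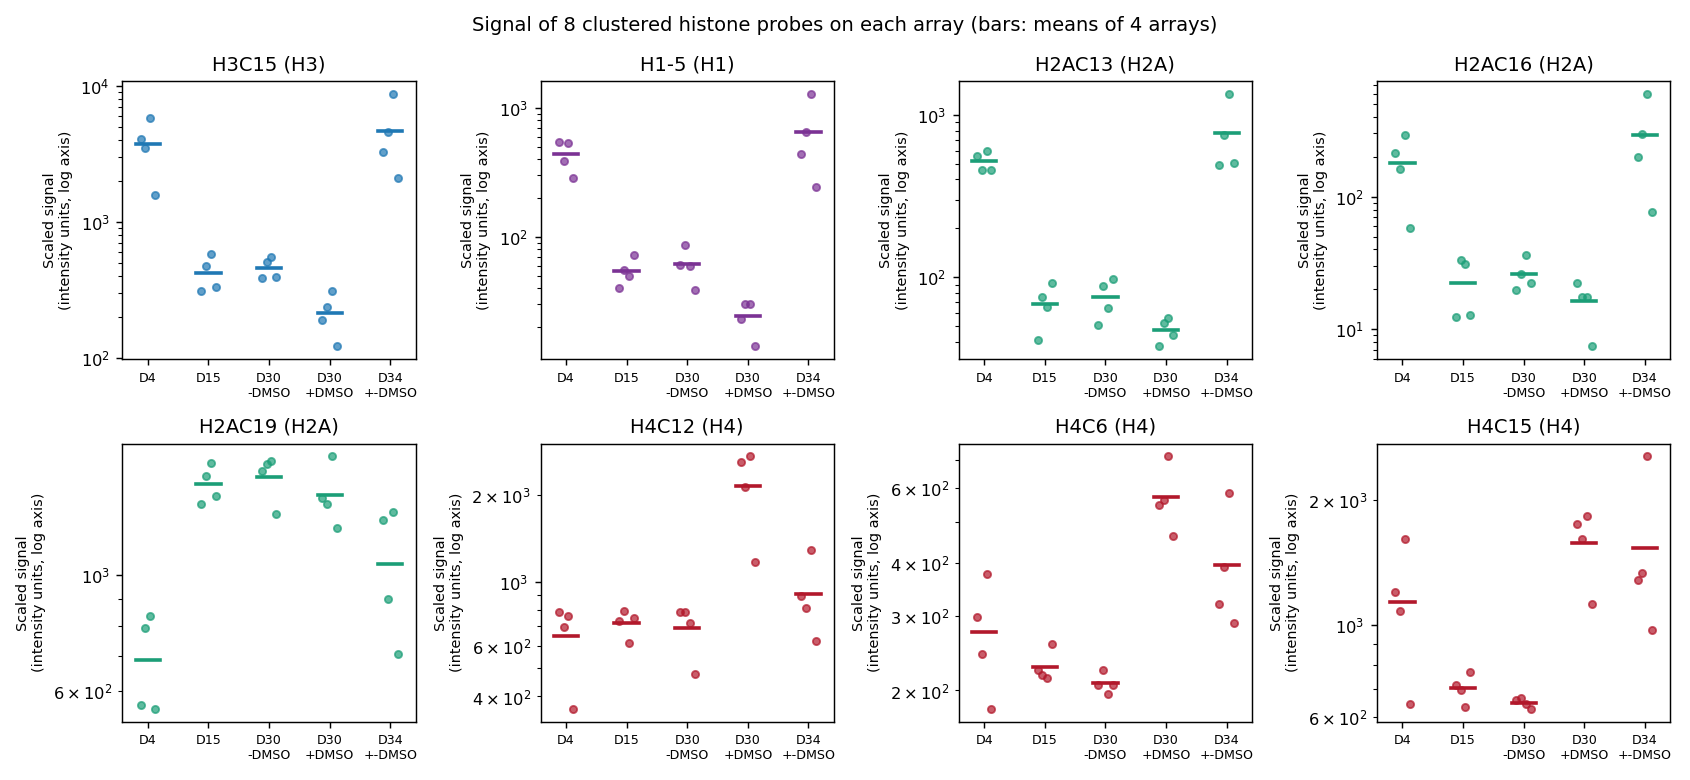
Scaled signal (intensity units, log axis) of 8 histone probes on each of the 20 arrays, by condition; points are arrays and bars are means of 4. H3C15, H1-5, H2AC13 and H2AC16 are high at D4 and D34 ± DMSO, H2AC19 is lowest at D4, and the H4 probes H4C12, H4C6 and H4C15 are higher at D30 + DMSO than at D30 − DMSO.

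Between D15 and D30 − DMSO, the comparison for 2 further weeks of confluent culture, limma called 0 of the 69 probes (background 0.00377% of all probes tested). None had an unadjusted p below 0.05, and the methods' t-test also called 0. The median was 0.04, against -0.02 over all probes, and the fitted values lay between -0.34 and 0.42. Arrays of the 2 conditions did not overlap for 1 probe, that of H1-3, which was higher at D30 − DMSO, and for none in the other direction (1.16% and 1.11% of all probes).

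At day 30, cells with DMSO were compared with cells without it. Of the 69 probes, 4 rose and 0 fell, against 1.68% of all probes called higher, 4.14% called lower and 5.82% called in all. All 4 are H4 probes, of 15 tested, and belong to H4C12 (both probes), H4C6 and H4C15. The median over the 69 was 0.31, against 0.04 over all probes, and 53 of 69 fitted values were above 0. By class the medians were 0.84 for H4, 0.40 for H2B, 0.35 for H3, 0.07 for H2A and 0.02 for H1. The H4 probes did not move as 1: 11 of 15 fitted values were above 0 and 4 below. H4C3, the H4 probe with the highest signal, was level, with 38953 ± 4511 at D30 − DMSO and 38682 ± 9766 at D30 + DMSO (SD, n = 4 arrays). The 2 probes of H4C13 were at -0.05 and 0.80 and those of H4C4 at -0.29 and 0.84, none of them called.

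H4C12, which encodes histone H4, had 785, 783, 720 and 479 at D30 − DMSO and 2587, 2123, 2711 and 1173 at D30 + DMSO by probe A_23_P30813. At D4 this probe had 783, 695, 759 and 362, at D15 730, 791, 611 and 745, and at D34 ± DMSO 891, 809, 1290 and 624. Thus by this probe D30 + DMSO stood above the other conditions except for 1 array, replicate 4, which lay within the range of D34 ± DMSO. The other H4C12 probe, given below, did not have this pattern. The rise with DMSO was 1.59 (SE 0.29, 3.01-fold, adjusted p = 0.000592).

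H4C6 had 206, 223, 196 and 206 at D30 − DMSO and 547, 562, 712 and 461 at D30 + DMSO, a rise of 1.44 (SE 0.22, 2.72-fold, adjusted p = 0.000109). H4C15 had 662, 667, 644 and 628 and then 1745, 1611, 1830 and 1121, a rise of 1.25 (SE 0.27, 2.38-fold, adjusted p = 0.00229). In neither gene did the arrays of the 2 conditions overlap. At D4 and at D34 ± DMSO, H4C6 had 274 ± 82.5 and 396 ± 133, and H4C15 had 1134 ± 396 and 1532 ± 692 (SD, n = 4 arrays).

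No H2B probe was called: 19 of 20 had a fitted value above 0, and 2 had an adjusted p below 0.005 with less than 2-fold. Among all 69 probes 7 passed on the adjusted p alone, each of them higher, against 3.71% of all probes. The H2B probes were those of H2BC11 (0.78, SE 0.12, adjusted p = 9.29e-05) and H2BC17 (0.74, SE 0.16, adjusted p = 0.0024), named after their values were seen. Arrays did not overlap for 28 of the 69 probes with D30 + DMSO higher and for 2 with it lower, where 12.6% and 12.7% of all probes did so. The probes that had fallen most from D4 to D15 were not called: H3C15 was -1.17 (adjusted p = 0.057) and H1-5 was -1.34 (adjusted p = 0.0245).

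The count of 4 called probes fell to 2 without D30 + DMSO replicate 1 or 3 or without any 1 of the D30 − DMSO replicates, and rose to 6 without D30 + DMSO replicate 4. With the slide as a block it was 7, and with the methods' t-test 1. Within slides, H4C12 differed by 1.58 and 1.90, H4C6 by 1.43 and 1.48, and H4C15 by 1.19 and 1.34 on the 2 slides that hold both conditions, and the medians of the 69 probes were 0.38 and 0.29.

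**Figure D3:**
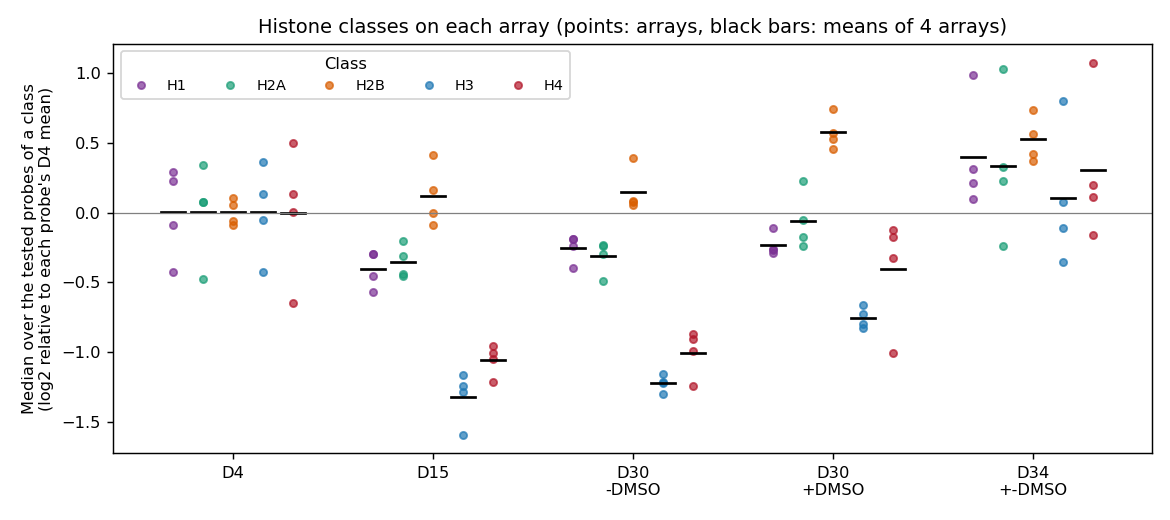
Median over the tested probes of each histone class (log2, each probe relative to its D4 mean, vertical axis) on each array, by condition; points are arrays, black bars means of 4. The H3 medians lie between -1.59 and -0.66 from D15 to D30 + DMSO, the H2B medians are highest at D30 + DMSO and D34 ± DMSO (means 0.58 and 0.53), and replicate 3 is the highest D34 ± DMSO array in every class.

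After DMSO had been taken away for 4 days, 16 of the 69 probes rose and 2 fell relative to D30 + DMSO, against 4.93% and 2.04% of all probes tested, or 6.97% together. The same numbers passed on the adjusted p alone, against 6.45% and 5.15%. Arrays did not overlap for 25 probes higher and 3 lower, where 11.5% and 12.6% of all probes did so. The median was 0.23, against -0.06 over all probes. Rises were found for 7 of 14 H3 probes, 4 of 16 H2A, 3 of 15 H4, 1 of 4 H1 and 1 of 20 H2B. The H2B probe was again that of H2BC7. H1-5 rose by 4.55 (SE 0.40, 23.3-fold, adjusted p = 1.97e-07) and H3C15 by 4.33 (SE 0.41, 20.1-fold, adjusted p = 4.83e-07), from the values given above. The size of the H1-5 rise rests on low values at D30 + DMSO, where 3 of 4 arrays were well above background.

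H2AC16, a replication-dependent H2A, had 22.5, 17.5, 17.5 and 7.43 at D30 + DMSO, where 2 of 4 arrays were well above background, and 200, 297, 599 and 77.1 at D34 ± DMSO. At D4 it had 213, 162, 291 and 58.5. The 2 high conditions overlapped each other and not D30 + DMSO. The fitted rise was 3.93 (SE 0.57, adjusted p = 5.09e-05), a size that rests on values near background at D30 + DMSO.

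The falls were those of H4C12 by the probe described above, -1.23 (SE 0.29, adjusted p = 0.00425), and of H2BC21 by probe A_23_P149545. The latter had 84.5, 87.2, 101 and 210 at D30 + DMSO and 31.7, 33.2, 9.72 and 40.7 at D34 ± DMSO (3 of 4 arrays well above background), a difference of -2.14 (SE 0.44, adjusted p = 0.00143). The other H2BC21 probe, A_33_P3229246, had the opposite sign, with 26.0, 20.9, 39.9 and 31.5 and then 38.0, 48.1, 69.7 and 43.2 (0.75, SE 0.22, adjusted p = 0.0183, not called). H4C6 and H4C15 were not called, at -0.57 (adjusted p = 0.0743) and -0.11 (adjusted p = 0.841).

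This comparison shares no array with that of D15 and D4. Of the 20 probes lower at D15, 15 (75%) were among the 16 that rose after removal (93.8% of these). The other 5 that fell were probes of H3C11, H3C13, H4C1, H4C2 and H4C4, and H2AC4 was the 1 that rose after removal alone, named here after their values were seen. The probe of H2BC7, called in both comparisons, was tested only through D4 and D34 ± DMSO, so its reversal is not independent of that filter. Among the 62 probes well above background on all 20 arrays, 17 were called lower at D15 and 13 higher after removal. Across the 69 probes the differences of the comparisons had r = -0.919, a description of probes that share arrays, samples and near-identical targets. Neither the overlap nor r was computed over all probes tested, so whether the reversal is particular to histone probes was not tested.

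**Figure D4:**
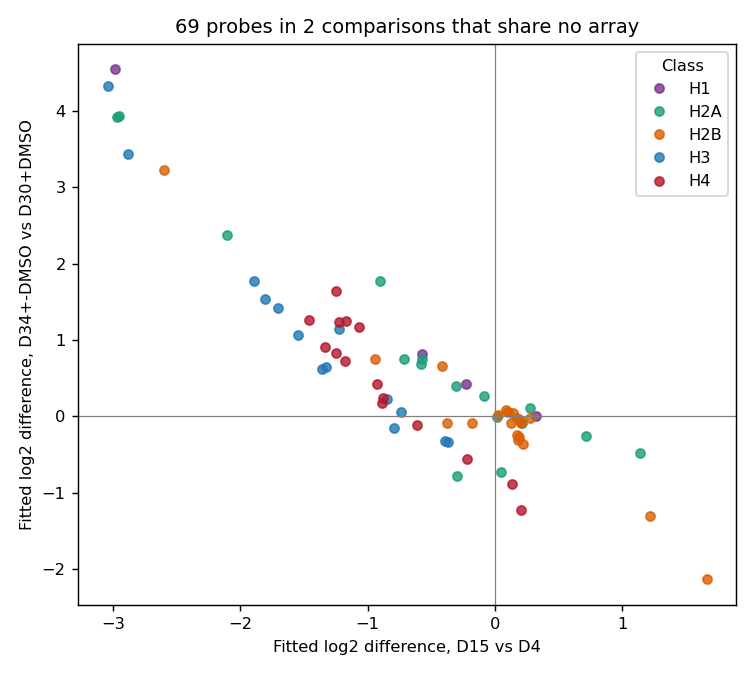
Fitted log2 difference from D4 to D15 (horizontal axis) and from D30 + DMSO to D34 ± DMSO (vertical axis) for the 69 tested probes, colored by histone class. Probes that were lowest at D15 are highest after removal, and most H2B probes lie near 0 on both axes.

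The count of 18 called probes was 2 with the methods' t-test, 6 when only the arrays of the 2 conditions were fitted, and between 13 and 19 when each array was left out. The median moved from 0.23 to -0.0072 without D34 ± DMSO replicate 3, to 0.09 without D30 + DMSO replicate 4 and to 0.40 without D34 ± DMSO replicate 4. Within slides it was 0.40 on slide 3 and 0.02 on slide 4. H1-5, H3C15 and H2AC16 were higher at D34 ± DMSO on both slides, by at least 3.56, 3.45 and 2.76.

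Cells at D34 ± DMSO were also set against the progenitors at D4. limma called 0 of the 69 probes (background 8.28% of all probes, 5.43% higher and 2.86% lower), the methods' t-test called 0, and 20 had an unadjusted p below 0.05. The median was 0.33, against -0.03 over all probes, and 0.08 without D34 ± DMSO replicate 3. Fitted values were above 0 for 63 of the 69. Arrays did not overlap for 12 probes, all of them H2B and higher at D34 ± DMSO, where 10.4% of all probes were higher without overlap and 12.4% lower. Among H2B the median was 0.53. On the adjusted p alone 7.14% of all probes were higher and 6.19% lower, and 4 H2B probes had an adjusted p below 0.005 with less than 2-fold: H2BC14 (0.67, SE 0.12, adjusted p = 0.000515), H2BC10 (0.56, adjusted p = 0.00331), H2BC12 (0.61, adjusted p = 0.0034) and H2BC8 (0.56, adjusted p = 0.00493), of which H2BC10 and H2BC8 were named after their values were seen. H3C15, H1-5 and H2AC13 differed from D4 by 0.27 (SE 0.41), 0.37 (SE 0.40) and 0.47 (SE 0.30). Without D4 replicate 1, 1 probe was called.

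Over all 5 conditions, limma's moderated F-test (p below 0.001 after Bonferroni adjustment, with over 3-fold) called 5 of the 69 probes, against 4.98% of all probes tested. They were those of H2AC13, H3C2, H1-5, H3C15 and H3C8. Without the 7 arrays of slide 4 it called 0 of the 69. That run had fewer arrays and its share over all probes is not given, so it does not single out the histone probes.

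Of the 9 genes with more than 1 tested probe, the probes of H2AC17 and H4C4 disagreed in the call from D4 to D15, and those of H2AC17, H2BC21 and H4C12 after DMSO removal. Probe A_32_P221799 of H2AC17 had 890, 750, 1056 and 326 at D4 and 177, 180, 173 and 120 at D15, a fall of 2.11 (SE 0.41, adjusted p = 0.00083), and rose by 2.37 (SE 0.41, adjusted p = 0.000352) after removal. Probe A_24_P86389 of the same gene had 4612, 4429, 6078 and 3231 at D4 and 3930, 3745, 5130 and 4208 at D15, and was not called, at -0.08 (SE 0.23). For H4C4 both probes had the same fitted fall, -1.25, of which 1 was called.

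The H2BC21 probes had fitted values of opposite sign from D4 to D15. Probe A_23_P149545 had 12.0, 22.6, 14.4 and 38.9 at D4 (2 of 4 arrays well above background) and 42.1, 71.0, 59.8 and 85.1 at D15, at 1.66 (SE 0.44, adjusted p = 0.00856). Probe A_33_P3229246 had 44.2, 30.4, 51.4 and 32.8 and then 20.02, 19.4, 20.9 and 20.3, at -0.94 (SE 0.22, adjusted p = 0.00346). Neither was called, and in both the arrays did not overlap. Probe A_33_P3299865 of H4C12 had 3179, 2918, 4083 and 2029 at D4, 1469, 1614, 1577 and 1757 at D15, 1464, 1474, 1518 and 1472 at D30 − DMSO and 3634, 3236, 4260 and 2044 at D30 + DMSO. At D34 ± DMSO it had 3080, 3152, 5961 and 2873, so its D30 + DMSO arrays overlapped those of D4 and of D34 ± DMSO. It rose 2.15-fold with DMSO (log2 SE 0.24, adjusted p = 0.00327) like the other probe, and was not called after removal, at 0.17 (SE 0.24).

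**Figure D5:**
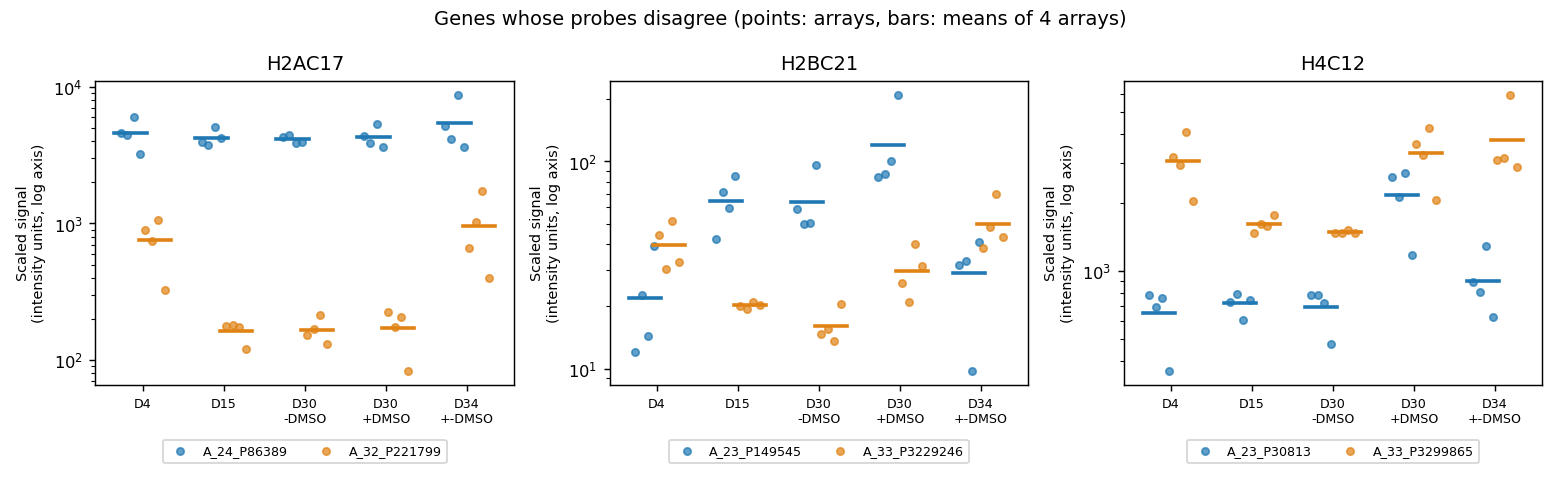
Scaled signal (intensity units, log axis) of the 2 probes of H2AC17, H2BC21 and H4C12 on each array, by condition; points are arrays and bars are means of 4. The blue H2AC17 probe is nearly level while the orange one is low from D15 to D30 + DMSO, the H2BC21 probes differ in sign between D4 and D15, and both H4C12 probes are higher with DMSO.

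Many H2A and H2B genes lie head to head, and 7 such pairs, by the order of their promoter windows, had tested probes of both genes. H2AC15 and H2BC15, whose windows also overlap, were not placed head to head by that order and are not counted. Neither of them was called from D4 to D15, at -0.31 and -0.18. In none of the 7 were both genes called lower from D4 to D15. H2AC13 fell by 2.97 while its neighbour H2BC13 was not called, at 0.19 (SE 0.20). H2BC7 had 115, 85.1, 126 and 50.7 at D4 and 18.4, 11.9, 12.3 and 17.2 at D15, where 2 of 4 arrays were well above background. It was called lower (adjusted p = 0.000355). However, it was tested only through D4 and D34 ± DMSO, so its fall is not independent of that filter. The size of the fall rests on values near background. Its neighbour H2AC7 was not called, at 0.72. The third pair with a call was H2AC17, by 1 of its probes, and H2BC17 at 0.22.

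Among genes with a promoter in the table, CCAAT was present in 13 of 15 with a probe that fell from D4 to D15 and in 35 of the other 40 tested, the octamer in 4 and 20, and the E2F-type site in 4 and 6. Of the 3 genes that rose with DMSO, 1 had CCAAT and none the octamer, against 47 and 24 of the other 52. H4 promoters held no octamer and few CCAAT boxes as a class. These are counts of letters in windows that are not independent, and no test was made of them.

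Genes that act with the clustered histones were followed as lists. These lists overlap: SLBP is also an S phase gene here. Of 40 S phase genes tested, 32 fell from D4 to D15 and 31 rose after DMSO removal, with medians of -1.71 and 1.84. Of 34 G2 and M phase genes, 33 fell and 33 rose, with medians of -2.85 and 3.04. Over all probes tested, 3.69% were called lower from D4 to D15 and 4.93% higher after removal, for these and the lists below. With DMSO 1 gene of each list fell, against 4.14% of all probes. At D34 ± DMSO against D4 none was called, against 8.28% of all probes. The summed signal of 4 proliferation markers (MKI67, TOP2A, CCNB1 and CDK1) ranged from 3766 to 5174 at D4, from 373 to 846 at D15, from 530 to 853 at D30 − DMSO, from 291 to 723 at D30 + DMSO and from 3479 to 7760 at D34 ± DMSO. All 4 markers were well above background on every array of each condition but D30 + DMSO, where 3 were, and their part in the histone results was not tested. In bulk RNA, fewer dividing cells and less histone mRNA per cell cannot be told apart.

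Of 18 tested genes for histone transcription and 3′ processing, 2 fell from D4 to D15 and the same 2 rose after removal: CCNE2 (-2.59 and 1.64), a cyclin of S phase entry, and its partner kinase CDK2 (-1.58 and 1.35). SLBP, which binds the stem-loop of histone mRNAs, had 2042 ± 467 at D4 and 1262 ± 252 at D15, a difference of -0.69 (SE 0.20, adjusted p = 0.0139) that was not called. NPAT, the coactivator of histone genes, had 39.0 ± 9.72 and 31.9 ± 10.3 and was not called. Of 23 histone chaperones, 7 fell and 6 of them rose again after removal, among them CHAF1A, CHAF1B and ASF1B, which place new H3 and H4 on copied DNA, and HJURP, the chaperone of centromeric CENPA (-3.52 and 3.34).

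Of 12 replacement variants tested, 5 fell from D4 to D15: H2AX, H2AZ1, H2AZ2, MACROH2A2 and CENPA. H2AX, whose phosphorylated form marks DNA breaks, had 4075 ± 791 at D4, 1087 ± 268 at D15, 1590 ± 235 at D30 + DMSO and 4493 ± 772 at D34 ± DMSO. After removal H2AX (1.49), H2AZ1 (1.29) and CENPA (3.25) rose. None of the variants was called with DMSO, where the list's median was 0.47. At D34 ± DMSO against D4, 1 of the 12 was called lower, against 2.86% of all probes. From D4 to D15 the 8 hepatocyte markers tested all rose, with a median of 3.43, where 5.59% of all probes were called higher. At D4, HNF4A and ARG1 averaged 5.38 and 2.31 intensity units, and neither cleared the background criterion there. Both were tested only through later conditions, so their rise is not independent of that filter.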

How the data were processed

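The authors deposited Feature Extraction output for 20 Agilent SurePrint G3 8x60K arrays (version 10.7.1.1 in the file headers, 10.7.3.1 per the labels). The authors' processed signal in these files is an intensity from which the background had been subtracted, not scaled between arrays. A matrix of log2 values, centred near 0 by a rule not stated, was also deposited and served as an alternative. Spots of a probe were averaged, outlier spots left out, and arrays scaled to 1 75th percentile. Values under 1 became 1 before log2 was taken. Between 61.1% and 74.2% of spots per array were well above background, and the number of arrays limits the precision. RefSeq accessions named 24826 probes. limma 3.58.1 (R 4.3.3) fitted 5 condition means to all 26531 probes tested, and p-values were adjusted over these. Thresholds came from the paper's methods, whose t-test and analysis of variance were alternatives. With 4 arrays against 4, an exact two-sided permutation p cannot be below 0.0286. The fit was tested on simulated data. Histone genes, lists and named probes were chosen with earlier results of these data known. Named were the 3 genes with the highest mean in each class, the 3 probes with the largest called rise and the 3 with the largest called fall in 3 comparisons, and genes whose probes disagreed. Lists hold 1 probe per gene, that with the highest mean. Among markers of other cell types, 2 of 5 tested stromal genes fell and 1 of 3 leukocyte, 2 of 6 biliary and 0 of 2 endothelial genes rose from D4 to D15. Of all probes tested, 3.69% were called lower and 5.59% higher in that comparison. No array had COL1A2 or PDGFRB (stromal) or EPCAM (biliary) well above background. Alternatives were other normalizations, filters and floors, blocks, tests and thresholds, 1 probe per gene, and each array left out. Leaving out slide 4 and a scan session block were added after seeing the data.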

Additional observations from a re-analysis of the deposited data

Results flagged for a closer look

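For the probes named by rank and change, 1 array lay apart from its 3 replicates in 7 of 120 groups of 4 arrays, where chance gives about 1 in 20. D4 replicate 4 was lowest for H4C3 (52458 intensity units, the next array at 84371) and for H4C12 (362, next 695). D30 + DMSO replicate 4 was lowest for H4C13 (5330, next 8477). D30 + DMSO replicate 3 was highest for H1-4 (3030, next 2418) and H2AC7 (9669, next 7260). D15 replicate 2 was lowest for H1-3 (593, next 639), and D30 − DMSO replicate 4 was lowest for H2AC21 (6267, next 6859). Of the 5 arrays named here, 4 lie on slide 4, all but D15 replicate 2, and they were lowest for some probes and highest for others.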

How the results depend on the processing

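Among the called probes named by rank and change, no direction reversed under any alternative run. Directions of the other called probes were not followed. From D4 to D15, the 21 called probes became 6 with the methods' t-test. With DMSO, the 4 called probes became 2 without a filter on dim probes, 1 with the t-test, 7 with the slide as a block, 8 with the scan session as a block and 9 at an adjusted p below 0.05, and ranged from 2 to 6 with 1 array left out. After DMSO removal, the 18 called probes became 6 with only the arrays compared and 2 with the t-test. From D4 to D34 ± DMSO the count ranged from 0 to 1 with 1 array left out. The F-test's 5 probes became 2 with the analysis of variance and 0 without slide 4. The replicate number as a block gave 9 called probes with DMSO. The labels do not say that numbers pair samples. Within the 5 comparisons made, deviations of same-numbered arrays correlated between 0.191 and 0.727 where both lay on 1 slide. Where they did not, the correlations lay between -0.321 and 0.359. Over all pairs of conditions, same-numbered arrays on different slides reached 0.533. Of 80 comparisons of an array with another condition, 39 were best for its own number. About 1 in 4 would be if numbers carried no information. Slide and number are not separated in this count, since every replicate 4 lies on slide 4. The causes of these changes were not tested. Signals near background, as in H1-5, H2BC7, H2AC16 and H2BC21, limit how far a low level can be followed.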
